A study of Homo sapiens with 22 samples.

Results

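The cell line TC-32, grown from an Ewing sarcoma, expresses the fusion protein EWSR1::FLI1. The regions described here are distal stretches of H3K27ac (acetylated lysine 27 of histone H3) that were found both with and without knockdown of the fusion. Each of 2 arms received 20 nM of siRNA, either siNEG, a control sequence, or siFLI1, a sequence against FLI1, by reverse transfection. Each arm gave 2 H3K27ac peak lists. A region had to overlap a peak in all 4 lists, to be under 10 kb wide, and to have its centre over 2 kb from any transcription start site (TSS) of GENCODE release 44. It also had to have no run of 4 or more GGAA units on either strand within 1 kb of its centre. Of 90572 merged regions, 22724 were in all 4 lists, and 10967 of these passed every limit. They were 48.3% of the regions in all 4 lists and 12.1% of the merged regions. They are called shared distal regions below. Width left out 595 regions, TSS distance 10897 and repeats 265.

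The same cells were profiled for H3K4me3 and for the transcription factor ETS1, with 2 lists per arm each, and 1 further H3K27ac list per arm carried the antibody label ab4729. The labels do not say whether replicates were separate transfections, so spread between lists may be technical. They give no time after transfection, and fusion depletion was not measured in the files used here. H3K4me3 lay at the TSS of 8 of 8 genes typical of Ewing sarcoma, among them CD99 and NKX2-2, in both lists of each arm. Of 8 genes of other cell types, only EPCAM, an epithelial marker, had it, in siNEG replicate 1 alone. The H3K27ac lists held 60027 and 60401 peaks (siNEG) and 65501 and 61481 peaks (siFLI1). Library depth is unknown from the lists. In bulk chromatin, fewer cells with a mark and less mark per cell cannot be told apart.

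H3K27ac is laid down by the coactivators EP300 and CREBBP and marks active promoters and enhancers. Enhancers act on genes at a distance and are held open by several transcription factors at once, such as AP-1 (FOS and JUN dimers) and TEAD proteins. EWSR1::FLI1 joins an activating domain to the ETS DNA-binding domain of FLI1. It is known to turn GGAA repeats into enhancers, and to lower the activity of other enhancers that hold single ETS sites. A distal region that keeps H3K27ac in both arms can still be stronger in either, and that is what the values below describe.

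Sequences at the 3 kinds of shared distal region show what the repeat limit left in the set. The first 4 stretches are the 300 bases at the centre of a region, read from hg38 (plus strand), with each GGAA, or TTCC for the other strand, in capitals. They were taken from the regions with the widest gaps between the arms or near the top of all 4 rankings. Stretches touching an exon were passed over, and those of METTL27 and SECISBP2, described below, are not shown. LINC01358 (chr1:59013366-59013665) was far stronger in siFLI1 and held 7 scattered GGAA cores. LINC01853 (chr2:140143800-140144099) and RN7SL705P (chr18:62673603-62673902) were far weaker in siFLI1 and held 1 and 6. ENSG00000260601 (chr16:12538788-12539087), in an intron of SNX29, was strong in all 4 lists and held 0.
LINC01358: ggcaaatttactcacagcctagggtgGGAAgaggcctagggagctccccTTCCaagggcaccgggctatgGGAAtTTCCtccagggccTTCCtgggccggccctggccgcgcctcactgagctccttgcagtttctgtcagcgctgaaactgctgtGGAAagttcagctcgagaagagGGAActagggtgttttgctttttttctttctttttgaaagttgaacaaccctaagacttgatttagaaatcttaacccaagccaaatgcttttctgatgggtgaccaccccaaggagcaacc
LINC01853: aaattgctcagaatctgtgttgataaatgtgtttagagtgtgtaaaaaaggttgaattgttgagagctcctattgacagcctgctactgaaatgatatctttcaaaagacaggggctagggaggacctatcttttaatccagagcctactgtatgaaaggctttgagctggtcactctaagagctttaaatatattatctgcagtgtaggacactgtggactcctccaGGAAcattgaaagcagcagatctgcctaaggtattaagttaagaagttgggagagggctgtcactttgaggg
RN7SL705P: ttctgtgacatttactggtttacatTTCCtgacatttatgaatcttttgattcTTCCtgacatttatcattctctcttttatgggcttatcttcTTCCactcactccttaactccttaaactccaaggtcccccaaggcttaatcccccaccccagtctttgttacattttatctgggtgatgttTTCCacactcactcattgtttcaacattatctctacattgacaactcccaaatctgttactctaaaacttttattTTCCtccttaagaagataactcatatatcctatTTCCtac
ENSG00000260601: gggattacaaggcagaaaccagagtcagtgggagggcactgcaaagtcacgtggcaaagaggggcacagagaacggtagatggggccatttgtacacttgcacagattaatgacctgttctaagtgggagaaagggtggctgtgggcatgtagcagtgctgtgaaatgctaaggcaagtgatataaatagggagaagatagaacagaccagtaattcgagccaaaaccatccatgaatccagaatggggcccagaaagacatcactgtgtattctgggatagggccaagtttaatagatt

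Repeats beyond the 1 kb limit could still lie at or near a region's edge, and 3 are shown with their runs of 4 or more units in capitals and up to 20 bases on each side (hg38, plus strand). They were chosen after their values were seen, as the 3 repeats within 2 kb of regions lower in siFLI1 with the widest gaps, among the repeats that could be printed. The repeat near LINC01853 (chr2:140144964-140145055) had 13 units and lay 1060 bp from the region's centre, across its edge. That of ENSG00000223344 (chr1:192008444-192008523) had a longest run of 10 units at 1172 bp, and that of LINC02410 (chr12:95828023-95828090) had 7 units at 1325 bp.
LINC01853 repeat: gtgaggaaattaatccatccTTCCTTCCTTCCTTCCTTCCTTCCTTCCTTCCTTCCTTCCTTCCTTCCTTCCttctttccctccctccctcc
ENSG00000223344 repeat: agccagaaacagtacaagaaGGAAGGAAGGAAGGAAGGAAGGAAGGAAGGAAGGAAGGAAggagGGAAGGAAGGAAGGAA
LINC02410 repeat: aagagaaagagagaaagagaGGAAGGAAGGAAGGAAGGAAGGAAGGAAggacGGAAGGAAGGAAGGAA

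Signal strength was compared as a percentile. The highest fold of a region's peaks (the authors' enrichment over local background) was ranked in each list among the 22724 regions in all 4 lists. The shift is the mean percentile in siFLI1 minus that in siNEG, in points. The regions were chosen by presence in these 4 lists and are described by these same values, which are therefore given with no test. The median percentile of the shared distal regions was 39.8 and 42.2 in the siNEG lists and 38.3 and 38.7 in the siFLI1 lists. All 4 medians were below the middle of the ranking.

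The working name of the set, stable regions, held for presence, while strength differed more between the arms than within them. Over the 10967 regions, Spearman's rho of the percentiles was 0.736 between the siNEG lists and 0.746 between the siFLI1 lists. Between a siNEG and a siFLI1 list it was 0.487 to 0.505. The median absolute difference was 11.3 and 10.8 points within arms and 16.4 to 16.9 points between arms. At 9242 promoter regions in all 4 lists (centre within 1 kb of a TSS), rho was 0.791 and 0.806 within arms and 0.668 to 0.698 between them. These are correlations across regions, which share their libraries. All 4 percentiles lay within 10 points in 705 shared distal regions (6.43%), against 9.41% of all regions in all 4 lists and 11.8% of promoter regions. They lay within 2 points in 19 of the 10967, against 124 of all 22724.

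The shift of the shared distal regions had a median of -2.07 points, with quartiles of -15.9 and 11.7 and a range from -94.8 to 88.6. Over all regions in all 4 lists the median was 0.36, and at promoter regions it was 2.79. Ranked among all peaks of a list instead, the medians were -0.578 for the shared distal regions and 0.834 for all regions in all 4 lists. Without siNEG replicate 2 the median of the shared distal regions was -0.935. At the 265 distal regions left out for a repeat within 1 kb the median was -32.1. Both siFLI1 percentiles lay above both siNEG percentiles in 2575 shared distal regions (23.5%), where 26.0% of all regions in all 4 lists did so. They lay below in 3223 (29.4%), against 24.9%. With a gap of at least 10 points between the arms, 1423 (13.0%) were higher in siFLI1, against 12.6%, and 1796 (16.4%) were lower, against 13.1%. Ranked among all peaks of a list, 1297 (11.8%) were higher, against 9.98%, and 1374 (12.5%) were lower, against 9.14%. Higher and lower counts lay closer together under that ranking, while the share of lower regions stayed above that of all regions. The regions past the gap in the first ranking are called higher and lower here, and the other 7748 are called between. Since promoters are stronger, the kinds were also set side by side at like strength. In 5 steps of mean percentile from 0 to 100, the median shifts of the shared distal regions were -1.02, -2.69, -2.64, -3.33 and -1.51, and those of promoter regions were -0.114, 3.94, 6.90, 3.29 and 1.48. The steps were cut on the mean of the same bounded percentiles, which by construction keeps shifts small in the lowest and the highest step. The share with all 4 percentiles within 10 points is bounded in the same way, with 10.3%, 1.49%, 1.62%, 4.91% and 34.9% of shared distal regions from low to high and 6.08%, 1.84%, 2.23%, 5.28% and 40.7% of promoter regions.

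**Figure D1:**
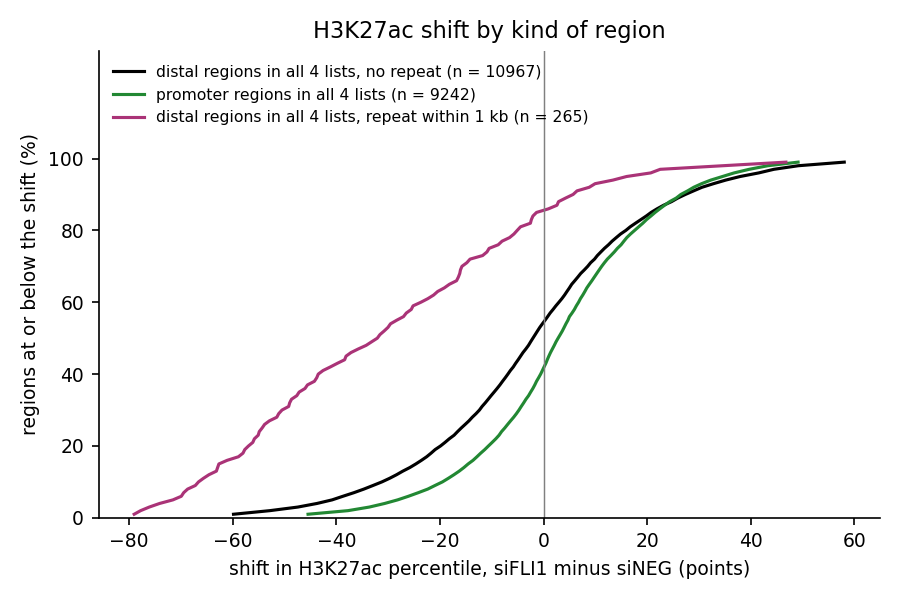
Cumulative share of regions (vertical axis, %) by shift in H3K27ac percentile (horizontal axis, siFLI1 minus siNEG, points) for shared distal regions, promoter regions and distal regions with a repeat within 1 kb. The curve of shared distal regions reaches 50% left of the promoter curve (medians -2.07 and 2.79), and the repeat curve lies far to the left (median -32.1).

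The widest gap towards siFLI1 was at LINC01358, a long non-coding RNA gene. The centre of its intronic region (chr1:59012432-59014599) lay 229468 bp from a TSS of JUN, the AP-1 subunit. That region had percentiles of 5.05 and 4.66 in siNEG and 93.4 and 93.6 in siFLI1. The folds behind them were 3.54 and 3.34 against 20.5 and 20.8. The region near METTL27 (chr7:73849560-73852686, intergenic) had 0.220 and 9.06 in siNEG and 92.8 and 85.5 in siFLI1. That of SEMA4B, a semaphorin, (chr15:90153828-90156004, intergenic) had 1.58 and 6.11 against 84.7 and 81.0. These regions sat among the weakest of the shared set in siNEG and near the top in siFLI1. An intron of FNIP2, a folliculin partner in nutrient signalling, (chr4:158809096-158812144) had 14.7 and 6.11 against 91.5 and 89.1. The remaining regions of the 6 widest gaps were intergenic, near PPIAP16 and LINC01348. None of the 6 was in the ab4729 siNEG list, and all 6 were in the ab4729 siFLI1 list, with folds from 4.83 to 18.0.

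The widest gap towards siNEG was in an intron of SULF1, a heparan sulphate sulphatase. That region (chr8:69527063-69529883) had percentiles of 93.8 and 96.4 in siNEG and 0.0132 and 0.546 in siFLI1, with folds of 23.4 and 20.7 against 2.21 and 2.67. The region near LINC01853 (chr2:140142902-140144998, intergenic) had 92.6 and 96.2 against 7.94 and 2.04. That of RN7SL705P (chr18:62672480-62675025, intergenic) had 88.5 and 93.2 against 4.71 and 3.60, with the nearest repeat 412975 bp away. In each, the siNEG values were near the top and the siFLI1 values near the bottom, with no overlap. The region near ENSG00000223344 (chr1:192006177-192008446) lay in an intron of LINC02770 and had 83.0 and 83.4 against 1.23 and 1.14. In the ab4729 lists, SULF1 had percentiles of 82.4 in siNEG and 1.47 in siFLI1, and LINC01853 had 80.2 and 11.3. The other 2 of the 6 were near ENSG00000254043 and, in an intron of STK3 (a Hippo pathway kinase), ENSG00000253415. Of the 6, 4 had a repeat within 2 kb of the centre. Among the 6 widest gaps towards siFLI1, SEMA4B had a 9-unit repeat 1905 bp from the centre. The nearest repeats of METTL27 and LINC01348 lay 2449 and 2574 bp away, and those of PPIAP16, LINC01358 and FNIP2 31094 bp or more.

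Some regions were near the top of all 4 rankings, where percentiles are bounded and hide differences in fold. Of the 19 within 2 points, the strongest was at GADD45A, a stress-response gene (chr1:67685139-67690756, centre exonic), with 99.8 and 99.9 in siNEG and 99.97 and 99.97 in siFLI1. SECISBP2, a selenoprotein synthesis factor, came next (chr9:89311147-89320357, centre in an intron of CKS2), with 99.6, 99.6, 99.8 and 99.5. The others were at CHD9NB, in introns of SNX29 and DLGAP1, and at CCDC77. All 4 lists placed these 6 regions at the 98.07 percentile or above. Folds were close at some and not at others: those of GADD45A were 54.3 and 48.6 in siNEG and 51.6 and 50.2 in siFLI1. Those of CCDC77 were 81.3 and 40.1 against 32.2 and 28.3, and those of the region in SNX29 were 56.3 and 28.3 against 37.3 and 31.8. All 6 also had a peak in both ab4729 lists, where not all percentiles were even: GADD45A had percentiles of 85.1 in siNEG and 98.4 in siFLI1. CCDC77 had 87.2 and 98.4, and the region in SNX29 had 97.2 and 90.8, while SECISBP2 had 99.1 and 99.2.

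**Figure D2:**
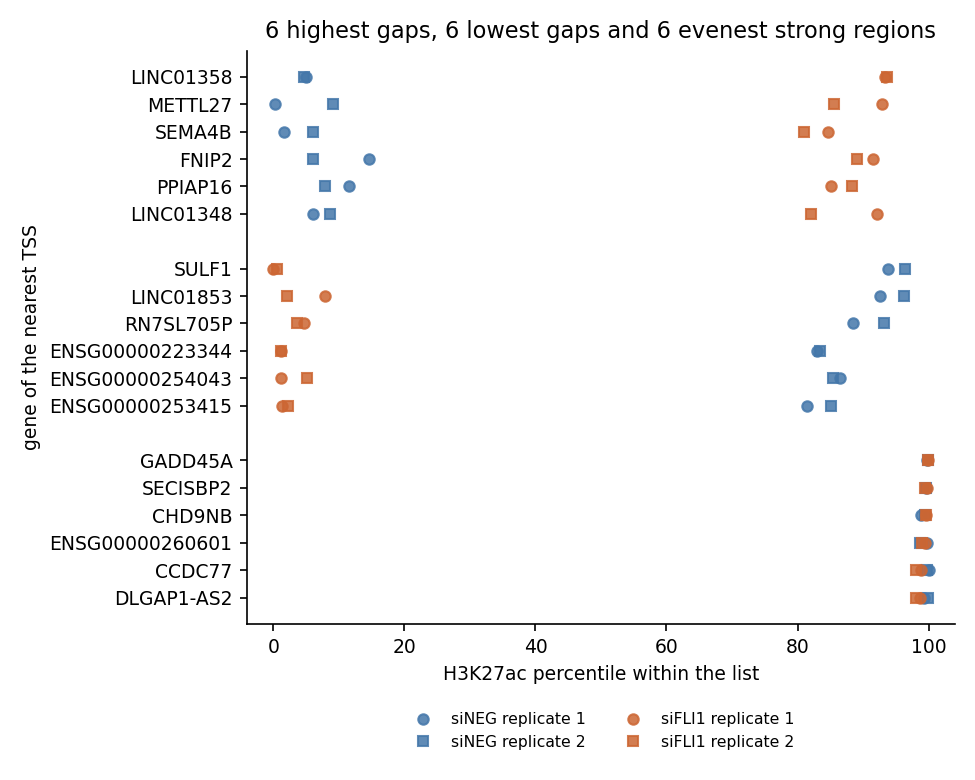
H3K27ac percentile within each list (horizontal axis) for 18 named regions, labelled by the gene of the nearest TSS, with circles and squares for replicates 1 and 2. In the upper 6 the siFLI1 points lie at 80.99 or above and the siNEG points at 14.7 or below, in the middle 6 the order is reversed, and in the lower 6 all points lie near 100.

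Repeats outside the excluded window moved with the shift. In the 257 shared distal regions whose nearest repeat was 1 to 2 kb from the centre, the median shift was -26.3 points, and 138 (53.7%) were lower. At 2 to 5 kb the median was -5.36 (n = 364), at 5 to 10 kb -6.36 (n = 552) and at 10 to 20 kb -4.10 (n = 945). It came to -2.14 at 20 to 50 kb (n = 2125) and to -0.62 beyond 200 kb (n = 1818). The repeat limit counted from the centre, so 125 regions still held a repeat inside. Their median was -26.3, and 94 of them (75.2%) had both siFLI1 percentiles below both siNEG percentiles. The 338 regions with a repeat inside or within 1 kb of an edge had a median of -27.4, and the other 10629 had -1.66. In the ab4729 pair, which the rule did not use, 160 of 212 of these regions held by both lists were lower in siFLI1 (median -28.1). Over all 4317 shared distal regions held by both lists, 49.3% were higher in siFLI1 (median -0.389).

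The length of the repeat divided these regions further. At 1 to 2 kb, 124 regions beside a repeat of 10 or more units had a median shift of -40.8, and 92 (74.2%) were lower. Beside 7 to 9 units the median was -23.2 (n = 29), beside 5 or 6 units -2.75 (n = 36), and beside 4 units -10.9 (n = 68). At 2 to 5 kb the medians were -21.3 for 10 or more units (n = 105), -9.02 for 7 to 9 (n = 40), -3.27 for 5 or 6 (n = 78) and 4.74 for 4 units (n = 141). The shift was thus lowest beside the longest runs at both distances, with a smaller range at 5 to 20 kb (-8.36 to -3.03). The ab4729 pair gave medians at 1 to 2 kb of -39.8 beside 10 or more units, where 63 of 71 regions were lower in siFLI1. Beside 4 units the median was -6.56, and 25 of 39 were lower. These counts are read against the 4317 shared distal regions in both lists, of which 49.3% were higher.

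**Figure D3:**
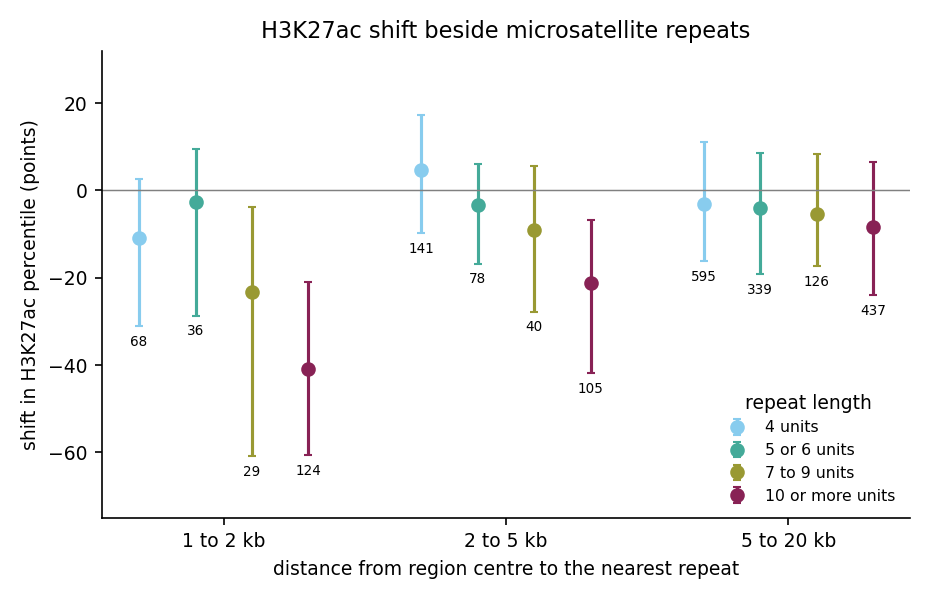
Median shift in H3K27ac percentile (vertical axis, points) by distance to the nearest GGAA repeat (horizontal axis) and by its length in units (colours), with bars for the quartiles and the number of regions under each bar. Medians beside repeats of 10 or more units run from -40.8 at 1 to 2 kb to -8.36 at 5 to 20 kb.

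Values just inside and just outside each limit were as follows. The widest region kept, near MIR23AHG, was 9999 bp wide with a shift of -15.3, and the narrowest left out, near CORO1C, was 10020 bp with 1.93. Just inside the TSS limit, the region of LINC02649 (2001 bp) had 16.0, and just outside, that of ZNF3 (2000 bp) had -6.69. As medians, regions 9 to 10 kb wide had -0.931 (n = 96, kept) and those 10 to 11 kb wide -0.250 (n = 76, left out). Regions 2 to 2.5 kb from a TSS had -1.75 (n = 579, kept) and those at 1.5 to 2 kb 1.19 (n = 694, left out). Around the repeat limit the median was -4.70 with a longest run of 3 units (n = 103, kept). It was -2.41 with 4 (n = 39), -13.0 with 5 or 6 (n = 52), -37.3 with 7 to 9 (n = 37) and -49.0 with 10 or more (n = 137), all left out.

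Shared distal regions were 68.6% intronic, 26.6% intergenic and 4.74% exonic by their centre. Their median width was 2258 bp and the median distance to a TSS 10128 bp. The share that was lower grew with distance from a TSS, from 12.9% at 2 to 5 kb (n = 2826) to 28.3% beyond 100 kb (n = 205), with median shifts of -1.28 and -6.92. By chromosome, the lowest medians were -8.52 on chromosome 13 (n = 194) and -7.27 on chromosome 18 (n = 193). The highest were 2.41 on chromosome 22 (n = 226) and 0.93 on chromosome 17 (n = 514). Over all regions in all 4 lists the same chromosomes had medians of -4.01, -4.26, 1.92 and 1.63.

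The shift also went with what lay nearby. Every merged region, promoters and repeats included, was counted as gained if in the 2 siFLI1 lists but in no siNEG list. Regions with the reverse were counted as lost. Of these, 5289 gained and 3143 lost regions were under 10 kb wide, over 2 kb from a TSS and without a repeat. The 2371 shared distal regions with only a gained region within 20 kb had a median shift of 5.30, and 22.02% were higher. The 1834 with only a lost region nearby had -10.4, and 27.6% were lower. With both nearby the median was -1.29 (n = 453), and with neither -2.59 (n = 6309). The ab4729 medians were 5.05 for gained only (n = 933) and -7.55 for lost only (n = 714). Between neighbouring shared distal regions up to 5 kb apart, rho of the shift was 0.285 over 1191 pairs, and at 100 to 500 kb it was 0.0392 over 2686 pairs. Neighbours share the same 4 libraries, and peaks of 1 chromatin domain are not independent.

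H3K27ac lists of the ab4729 pair, with 1 library per arm and so no replicate check, gave a reading that did not choose the regions. Of the shared distal regions, 5010 (45.7%, exact 95% binomial interval 44.7 to 46.6) overlapped a peak in siNEG and 7111 (64.8%, 63.9 to 65.7) in siFLI1. The intervals cover counting error over regions only. The lists held 32738 and 51663 peaks, and with the 32738 strongest peaks of each the shares were 45.7% and 49.2%. The difference between arms was thus 19.2 points with all peaks and 3.48 points with equal numbers. By class the lists parted: 36.5% of higher regions were in the siNEG list and 84.6% in the siFLI1 list (70.7% with equal numbers). Of lower regions, 63.2% were in the siNEG list and 59.2% in the siFLI1 list (40.7% with equal numbers).

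Where both ab4729 lists held a region, percentiles among the 12866 regions in all 6 lists were compared. The median shift of the pair was 21.1 points in 500 higher regions, and 78.0% of these (74.1 to 81.6) were higher in siFLI1. In 862 lower regions it was -19.1, and 20.8% (18.1 to 23.6) were higher in siFLI1. In 2955 regions between, the median was 1.36. Of all 4317 shared distal regions held by both lists, 49.3% were higher in siFLI1 (median -0.389), and the class shares are read against this. Over the 4317 regions Spearman's rho between the shifts was 0.460, across regions. Whether the ab4729 chromatin came from the same transfections is not given in the sources used here.

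**Figure D4:**
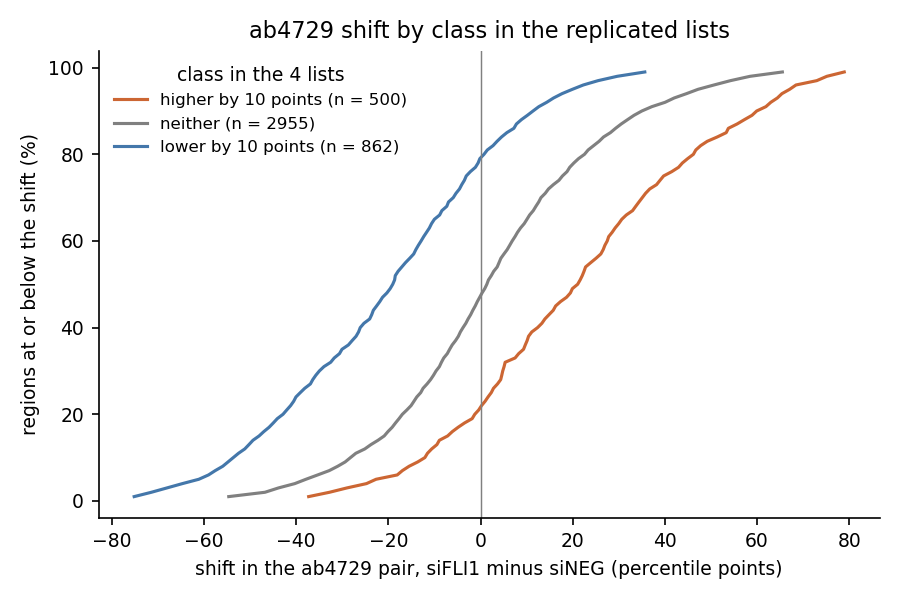
Cumulative share of regions (vertical axis, %) by shift in the ab4729 pair (horizontal axis, siFLI1 minus siNEG, percentile points), by class in the 4 replicated lists. The curves of higher, between and lower regions are ordered from right to left, with medians of 21.1, 1.36 and -19.1.

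H3K4me3, the methylation of promoters, was rare at shared distal regions. It overlapped 7.61% and 8.18% of them in the siNEG lists and 6.84% and 7.003% in the siFLI1 lists, against 81.8% to 82.0% of promoter regions. Both siNEG lists were above both siFLI1 lists, with means of 7.90% ± 0.400 (SD, n = 2) and 6.92% ± 0.116 (SD, n = 2). The difference of -0.976 points had p = 0.33 in a two-sided exact permutation test, the smallest p that 2 against 2 allows. With centres over 5 kb from a TSS the difference was -0.283 points (exact permutation p = 0.33). No H3K4me3 peak lay on 9948 regions (90.7%), and 630 had 1 in all 4 lists. Some of the latter reached a TSS with an edge. Of 262 regions with a TSS inside, 166 (63.4%) had H3K4me3 in all 4 lists, against 464 of the other 10705 (4.33%). GADD45A, SECISBP2, CHD9NB and CCDC77 were the strongest shared distal regions with H3K4me3 in all 4 lists. It was in all 4 lists at 4.15% of higher, 3.01% of lower and 6.67% of the regions between.

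ETS1, an ETS factor whose regulation by the fusion the study's title names, was at few shared distal regions. Its lists overlapped 9 and 9 of them in siNEG and 67 and 124 in siFLI1, with 302, 208, 1633 and 2635 peaks in the lists. These were 0.082%, 0.082%, 0.611% and 1.13% of shared distal regions, against 2.07%, 1.40%, 11.4% and 15.6% of promoter regions. The peaks of both siFLI1 ETS1 lists are named with the number 2, so these lists were not treated as 2 replicates, and no test was made. As shares of each list, 2.98% and 4.33% of siNEG peaks and 4.41% and 5.24% of siFLI1 peaks were at shared distal regions. The part of list length in the counts was not tested. In the 129 regions with any ETS1 peak the median shift was 3.99 points. Of these, 47 (36.4%) had both siFLI1 percentiles above both siNEG percentiles, against 23.3% of the 10838 without. The 129 were also stronger (median mean percentile 70.3 against 38.5) and wider (median 4148 against 2250.5 bp). A TSS lay inside 37 of them, and inside 262 of all 10967 shared distal regions. The part of these traits in the contrast was not tested. ETS1 was in all 4 lists at 5 regions, among them an intron of UHRF1, a reader of methylated DNA (chr19:4909405-4917559), and an intron of RCOR1, a corepressor (chr14:102592588-102596864). UHRF1 had H3K27ac percentiles of 85.1 and 75.8 in siNEG and 74.4 and 73.5 in siFLI1, and RCOR1 had 59.2 and 67.1 against 77.8 and 73.2. At LINC01563 (chr17:21098778-21099831) they were 87.1 and 94.5 against 51.6 and 40.7. ETS1 in all 4 lists thus stood beside shifts of either sign.

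Motif matches were counted to describe the sequence of the regions, which the rule used only for repeats. Windows of 500 bp at the centre were searched on both strands for fixed letters, and windows of the same length 1 kb beyond each edge served as flanks. AP-1 (TGANTCA) was in 23.5% of centres (22.7 to 24.3) against 13.8% and 14.0% of the flanks. It was in 17.8% of all regions in all 4 lists and in 11.1% of promoter regions. Other distal sets were nearer, with 22.3% of the 265 regions left out for a repeat. Among distal regions without a repeat it was in 20.6% of the 5289 gained and 19.0% of the 3143 lost. The ETS letters CCGGAA were in 6.45% of centres, 4.23% and 3.89% of flanks and 23.7% of promoter regions, and the GC box GGGCGG in 10.5%, 9.87%, 10.2% and 52.0%. TEAD letters (GGAATG, which include a GGAA) were in 29.0% of centres against 24.2% and 24.3% of flanks. The E-box CAGCTG was in 24.7% against 18.9% and 19.0%, while the E-box CACCTG was lower at the centre, 30.4% against 40.8% and 40.7%. A single GGAA was in 98.8% of centres and 97.1% and 97.0% of flanks. Median GC content was 45% at centres, 44% and 44.2% in flanks and 57.2% in promoter regions, and its part in these shares was not tested.

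Higher and lower regions were then set side by side. TEAD letters were in 34.6% of higher (32.1 to 37.1), 28.1% of between and 28.4% of lower regions (26.3 to 30.5). The homeodomain letters TAATTA were in 11.6% of higher (9.98 to 13.4) and 18.0% of lower regions (16.3 to 19.9). CAGCTG was in 28.7% and 21.99%. AP-1 was in 24.3% of higher (22.1 to 26.6) and 22.2% of lower regions (20.3 to 24.2), with intervals that overlap. Higher regions were richer in GC, with a median of 46.0% against 43.4%. With regions split evenly into low, middle and high GC content, TEAD letters were in 34.0%, 37.1% and 32.9% of higher and in 29.8%, 27.2% and 27.9% of lower regions. The homeodomain difference was mainly at low GC, 18.7% against 28.3%, with 13.8% against 14.4% at middle and 5.03% against 6.36% at high GC. For CAGCTG the shares from low to high GC were 17.9%, 25.5% and 38.5% of higher and 14.0%, 25.8% and 29.8% of lower regions. A match is a description of letters, not of a bound factor.

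**Figure D5:**
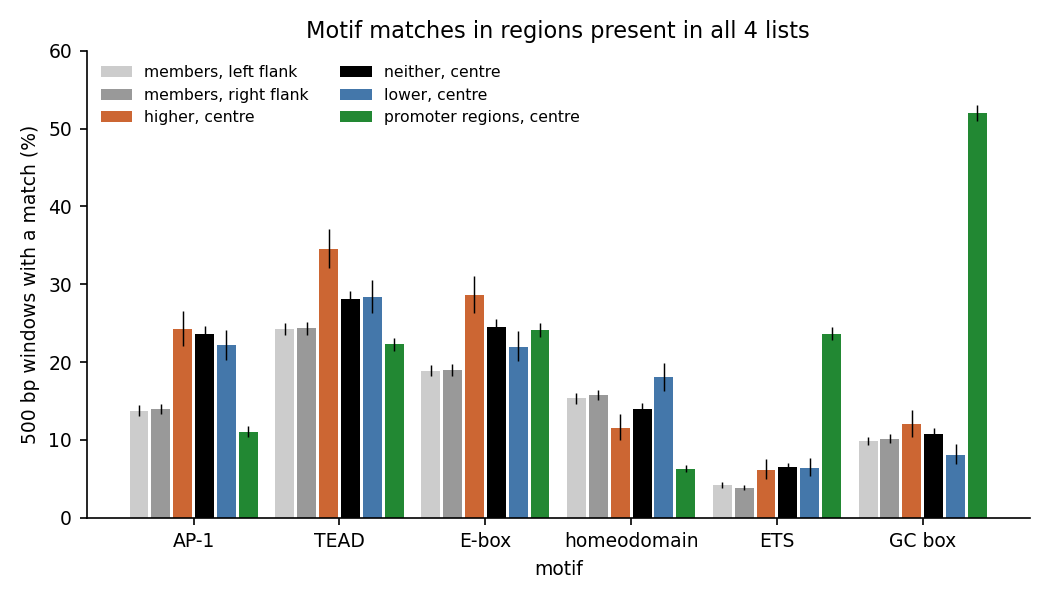
Share of 500 bp windows with a motif match (vertical axis, %) for 6 motifs (the E-box is CAGCTG), in flanks and centres of shared distal regions by class and in promoter regions. Bars start at 0, and whiskers are exact 95% binomial intervals. AP-1 stands at 22.2% to 24.3% in every class and at 13.8% and 14.0% in the flanks, and TEAD is highest in the higher class (34.6%).

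Gene groups were read through shared distal regions with their centre within 100 kb of a TSS of each gene. Over all shared distal regions, 13.0% were higher and 16.4% lower. Of 10811 protein-coding genes with such a region, 5581 had a median shift below 0 and 5230 above, and the gene counts that follow are read against these. Of 12 genes that the fusion is known to raise, 8 had such a region, and all 8 had a median shift below 0. Their 39 regions had a median of -8.72, with 1 higher and 11 lower. PRKCB, a protein kinase C and a known fusion target, had 18 regions from -41.1 to 55.6 (median -11.7), 5 lower and 1 higher. Its last region (chr16:24201462-24210097) had percentiles of 93.0 and 96.9 in siNEG and 73.0 and 34.7 in siFLI1. Another (chr16:24144447-24148832) had 26.0 and 13.0 against 81.8 and 68.4, so regions of 1 gene went both ways. IL1RAP, an interleukin receptor subunit, had 7 regions with a median of -1.37, and BCL11B, a repressor, had 6 with -8.37. In the ab4729 pair the median was -1.97 over 10 PRKCB regions and 12.9 over 3 IL1RAP regions. Those of CCND1, NR0B1 and VRK1, with 1 or 2 regions each, were below 0.

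Of 10 that it is known to lower, 9 had regions and 8 had a median above 0. Their 21 regions had a median of 14.2, with 7 higher and 2 lower. CCN1, a matricellular YAP target, had 6 (median 15.6, 2 higher). Its region at chr1:85605864-85608963 had 68.7 and 59.3 in siNEG and 90.7 and 90.2 in siFLI1. JAG1, a Notch ligand, had 4 regions with shifts from 7.69 to 14.2. At PHLDA1 the regions ran from -58.8 to 42.5. In the ab4729 pair the medians were -11.1 for regions of raised genes (17 regions) and 27.1 for those of lowered genes (11 regions).

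Mesenchymal and adhesion genes had 19 regions at 7 of 12 genes, all 7 with a median above 0. The median shift was 15.8, with 7 regions higher and 0 lower, and in the ab4729 pair it was 33.0 over 6 regions. TNS3, a focal adhesion tensin, had 5 regions (median 36.8, 3 higher). Its intronic region at chr7:47550657-47553904 had 25.3 and 8.01 in siNEG and 77.6 and 57.1 in siFLI1. COL1A1, a collagen chain, had 3 regions from 16.3 to 42.2, and FN1 (fibronectin) had 5 from 4.01 to 14.2. Neural and neural crest regulators went the other way: 5 of 12 genes had regions, all with a median below 0. Their 13 regions had a median of -25.1, with 0 higher and 8 lower, and -9.22 over 4 regions in the ab4729 pair. Of these 13, 10 were at SOX6 and SOX5, which held all 8 of the lower regions. SOX6, a SOX factor, had 6 intronic regions, 5 of them lower, and all 6 had both siFLI1 percentiles below both siNEG percentiles (median -36.8). At chr11:16346226-16349596 the percentiles were 79.4 and 80.01 in siNEG and 29.1 and 11.2 in siFLI1. The centre of that region lay 1785 bp from the nearest GGAA repeat, and those of the other SOX6 regions 7840 to 27941 bp. SOX5, its close relative, had 4 regions (median -30.4), 3 of them lower. No SOX6 region was in both ab4729 lists.

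Genes of the factors named above were mixed. The AP-1 subunits had 32 regions at 10 of 10 genes with a median of -3.19, of which 8 were higher and 3 lower. The median and the counts differed in sign: 6 of the 10 genes had a median above 0, and in the ab4729 pair the median was 11.6 over 16 regions. ATF3, a stress-induced AP-1 partner, and its neighbour BATF3 shared 3 regions, with medians of 34.7 over 4 and 50.1 over 3 regions. Their region at chr1:212634480-212637424 had 47.8 and 0.772 in siNEG and 75.2 and 73.5 in siFLI1, a wide spread within siNEG. FOSB had 6 regions with a median of -7.49. YAP and TEAD pathway genes had 38 regions with a median of 0.68 (3 higher, 5 lower), and 2.80 over 15 regions in the ab4729 pair. WWTR1, which encodes the coactivator TAZ, had 9 with a median of -21.2, 4 lower and 1 higher. TEAD1 had 8 with -4.68 and no region higher or lower, and TEAD4 had 3 with -9.27.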

How the data were processed

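Peak lists of TC-32 chromatin immunoprecipitation libraries were analysed: 14 lists of 22 samples, the others being inputs. Lists were called per library. The deposited fold column is the authors' ratio of a peak over local background, and the deposited −log10 columns hold the authors' p-value and q-value. Cutadapt 4.4, BWA 0.7.17, Picard 2.17.11 and MACS2 2.1.1, and builds GRCh38, hg38 and dm6, are named without a role per the submitters' processing notes. Input use and filters are not given in the sources used here. Depth is unknown, so precision rests on 2 lists per arm. A fixed q limit makes presence depend on enrichment. All peaks used were on chromosomes 1 to 22 and X.

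Lists were merged at 1 bp overlap in Python 3.11.15 (numpy 2.4.6, pandas 2.3.3, scipy 1.17.1, pysam 0.24.0). Coordinates are hg38, counted from 1, with the GENCODE release 44 annotation. Percentiles were ranked over regions in all 4 lists. Steps were tested on simulated data. Replicate numbers were checked as pairs: replicate 1 minus replicate 2 correlated between arms at r = -0.0106 over 10967 regions, so lists were treated as unpaired. The share with H3K4me3 was tested by an exact permutation test.

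Named regions were those with the 6 largest gaps each way, the 6 strongest within 2 points, those nearest each limit, up to 4 with ETS1 in the most lists and the 4 strongest with H3K4me3 in all 4. In each gene list the 2 genes with most regions and the 1 with the median farthest from 0 (3 or more regions) were named. Genome stretches touching exons or chromosome 8 were not printed. Values of 1 gene list and some sequences are not reported here. Regions, gene lists and tests were chosen with earlier results of these data known. Alternatives covered overlap, TSS and repeat limits, q limit, ranking, pairing and each list left out.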

Additional observations from a re-analysis of the deposited data

How the results depend on the processing

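The median shift, -2.07 points, stayed below 0 under each alternative run, from -2.38 with centres over 5 kb from a TSS to -0.578 with ranking among all peaks of a list. That ranking gave 1297 regions higher and 1374 lower (12.5%, against 9.14% of all regions in all 4 lists). Requiring 50% overlap changed nothing, because a merged region contains its peaks whole. With 1 list left out, fewer lists must agree and the counts were larger: 4300 to 4770 regions above, 5000 to 5401 below, 2503 to 2897 higher and 2987 to 3339 lower, with 12585 to 13129 regions found and a median shift of -2.28 to -0.935, the latter without siNEG replicate 2. Lower regions outnumbered higher ones without each list in turn, by least without siNEG replicate 2 (2897 higher, 3149 lower). The difference in ab4729 share, 19.2 points, was 3.48 with equal numbers of peaks and 16.9 to 20.7 with a list left out. The AP-1 share of 23.5% was 21.2% in 500 bp at the summit of the strongest peak and 63.1% in the whole merged region, a longer window. Under a replicate block, with same-numbered lists as pairs, the median shift was -2.07, with 3222 regions above, 3936 below, 1782 higher and 2218 lower, and the H3K4me3 difference of -0.976 points had p = 0.50 (exact sign-flip permutation test). The H3K4me3 difference lay between -1.30 and -0.701 points with a list left out. Leaving out every region with a repeat inside or within 1 kb of an edge, an alternative chosen after seeing the data, gave a median shift of -1.66, with 1400 regions higher and 1612 lower.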
